A study of Mus musculus with 56 samples.

Results

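Day-fed and night-fed mice were compared 4 h into the light period, at zeitgeber time (ZT) 4, where lights go on at ZT0. The animals were female C57BL/6J mice aged 9 weeks, a wild-type inbred strain with no transgene, kept for 7 days with food at set hours. Under day time-restricted feeding (DRF) food was present in the 12 h of light, and under night time-restricted feeding (NRF) in the 12 h of dark. At ZT4 a DRF mouse had therefore had food for 4 h and an NRF mouse had been without it for 4 h. All mice shared the strain, sex, age and light cycle. The regimen and the hours since the last food change together and cannot be told apart at this time. The comparison used the 8 mice sampled at ZT4, 4 DRF and 4 NRF, each a separate animal, out of 56 mice of the series. Polyadenylated RNA of the dissected anterior hypothalamus was sequenced, and 16056 genes were tested.

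The anterior hypothalamus holds the suprachiasmatic nucleus, which is the light-set master clock, and preoptic and periventricular neurons that serve temperature, water balance and reproduction. A meal raises blood glucose, insulin and amino acids and changes body temperature. Folding enzymes of the endoplasmic reticulum (ER), the cytosolic heat shock proteins and the enzymes of cholesterol synthesis are 3 groups of genes that cells adjust to protein load, heat and sterol supply. ER folding genes are switched on by XBP1 and ATF6 through a composite promoter element, heat shock genes by HSF1, and cholesterol genes by SREBP2, which INSIG1 holds back when sterols are plentiful.

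The normalized library size was between 30432789 and 33021659 reads per mouse at ZT4, and Pearson's r between mice across genes was 0.994 to 0.998. Counting error was not compared with the spread between mice. Anterior hypothalamic markers were present in both groups, and so were markers of neighbouring regions. None of the 15 anterior hypothalamic markers, which include Avp, Oxt, Vip and Sim1, was at 0, and their summed level was 989 to 1096 CPM (reads scaled to a common library size, unadjusted for gene length) in DRF and 813 to 1144 CPM in NRF. Thalamic markers, 6 genes, summed to 154 to 321 CPM in DRF and 157 to 452 CPM in NRF, with the higher values in replicates 3 and 4 of both groups. The 2 lateral hypothalamic markers summed to 441 to 904 CPM in DRF and 545 to 819 CPM in NRF. Striatal markers, 6 genes, summed to 167 to 222 and 150 to 248 CPM, and arcuate markers, 6 genes, to 97 to 138 and 112 to 150 CPM. How much neighbouring tissue the dissection held was not tested. In bulk tissue fewer cells of a type and less RNA per cell cannot be told apart.

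Expression differed between the regimens in 519 genes, 3.23% of those tested, at a Benjamini-Hochberg adjusted p under 0.05 (limma on log2(CPM + 1), 4 mice per group, two-sided). Of these, 375 genes (2.34% of all tested) were higher in DRF and 144 (0.897%) were lower. The differences were small for most genes, with a median of 0.24 over the genes called higher and -0.31 over those called lower, on the log2 scale. At an unadjusted p under 0.05 there were 3696 genes (23% of those tested). All 4 DRF mice lay above all 4 NRF mice in 1381 genes (8.6%) and below them in 886 (5.52%). Differences over all genes were centred at a median of -0.004, with 48.6% above 0.

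The number of calls rested on single mice. With 1 mouse left out it was between 4, without NRF replicate 4, and 698, without NRF replicate 1. It was 7 without DRF replicate 1, 11 without DRF replicate 4, 34 without DRF replicate 3, 75 without NRF replicate 3, 189 without NRF replicate 2 and 571 without DRF replicate 2. Every one of the 519 differences kept its direction in each of these 8 fits. These genes were chosen for their difference in the same mice, so a kept direction is no check of the calls. A total of 4 genes passed in all 8 fits, namely Srsf5, Slc38a2, Slc7a11 and Etv5, and 30 genes passed in 5 fits or more, while 41 passed in none. Why the count moved in this way was not tested. Values in every mouse are given below for the 4 genes that passed in all 8 fits and for some others. The remaining genes are given mostly by their difference alone.

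**Figure D1:**
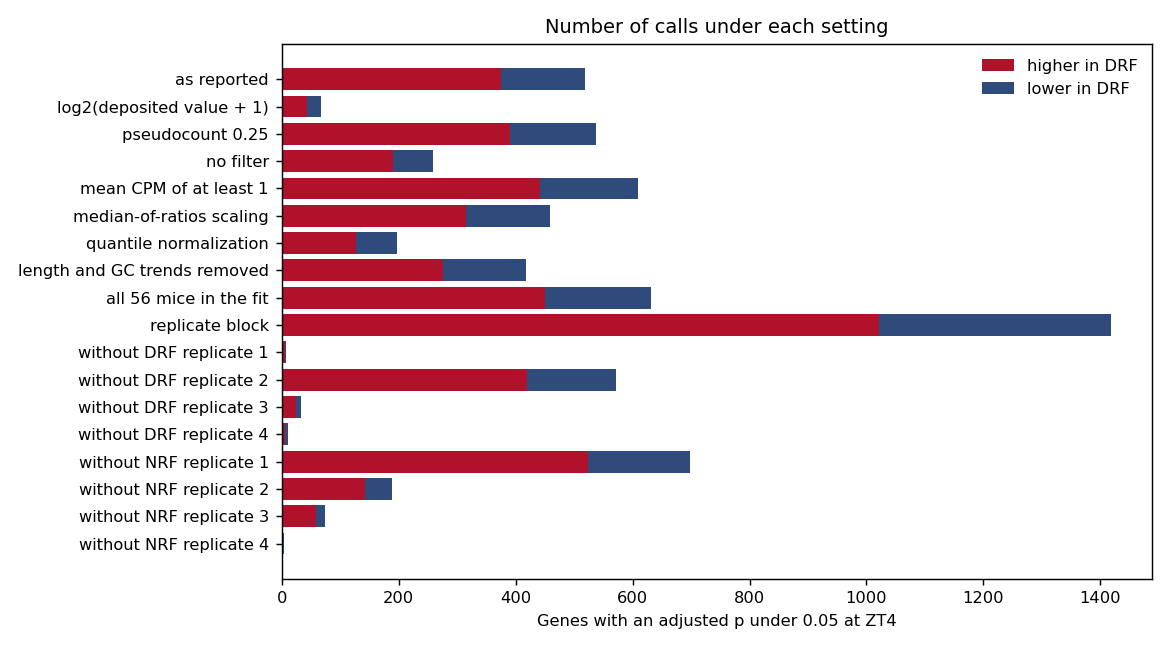
Number of genes with an adjusted p under 0.05 at ZT4 (horizontal axis) for the comparison as reported, for other processing settings and with each mouse left out (bars, one per setting; red higher in DRF, blue lower in DRF). The total is 519 as reported, 4 without NRF replicate 4 and 1418 with the replicate number as a block.

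A trend with gene length ran through the whole comparison. Spearman's rho between the difference and the exon length was 0.32 across genes, as a description. Median length was 7137 bases over the genes called higher, 3099 bases over those called lower and 4154.5 bases over all genes tested. NRF replicate 2 had the strongest such trend, with a rho of -0.45 between its deviation from the mean of the 8 mice and length. With the trends in length and GC content taken out of every mouse, 418 genes passed, 336 of them among the 519. Among the named genes whose call was lost in that setting, Zfhx3 went from 0.22 to 0.09 (adjusted p = 0.314) and Tef from 0.16 to 0.09 (adjusted p = 0.132). Tra2b (adjusted p = 0.113), Ly6c1 (0.0823), Dnajb4 (0.0651), Hexa (0.0589), Etnppl (0.0512) and C1qa, Efcab7 and H2ac19 (0.0532 each) lost theirs with smaller shifts. The part of the trend in other results was not tested.

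**Figure D2:**
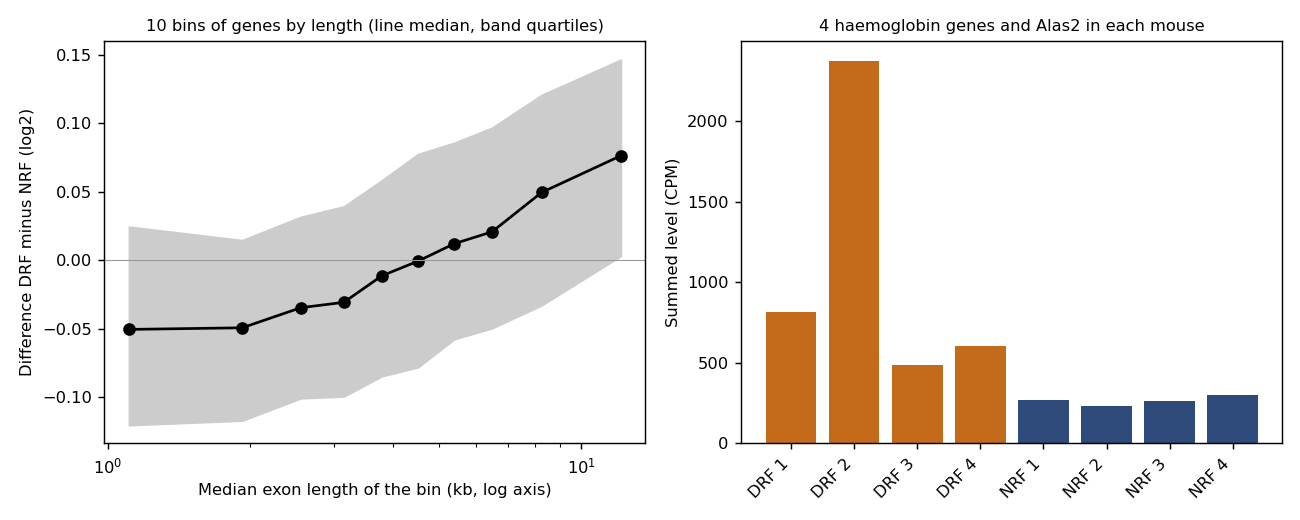
Left, the difference DRF minus NRF at ZT4 (log2) for 10 bins of genes ordered by exon length (kb, log axis; line, median; band, quartiles). Right, the summed level (CPM) of 4 haemoglobin genes and Alas2 in each mouse, with DRF mice from 488 to 2378 and NRF mice from 234 to 301.

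The red-cell genes were among the 6 called genes with the largest rises. Haemoglobin and its haem are made by the red-cell lineage. The sum of Hba-a1, Hba-a2, Hbb-bs, Hbb-bt and Alas2, the haem synthesis enzyme of that lineage, was 817, 2378, 488 and 605 CPM in the DRF mice and 272, 234, 263 and 301 CPM in the NRF mice. All 5 genes were called higher in DRF, with log2 differences between 1.61 and 1.72, and the ratio of the summed means was 4.01. DRF replicate 2 was the highest of all mice, and without it, a choice made after seeing the values, the ratio was 2.38. Each other DRF mouse still lay above every NRF mouse. Without DRF replicate 2 all 5 genes passed, with differences between 1.11 (Alas2) and 1.24 (Hba-a2). Hba-a1 and Hba-a2 passed in 2 of the 8 fits with a mouse left out, and Hbb-bs, Hbb-bt and Alas2 in 1. Near-identical haemoglobin copies share reads, so the split among them is uncertain. The part of blood in other results was not tested, and 571 genes passed without DRF replicate 2.

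Srsf5 had the smallest p of all genes tested. It encodes a serine/arginine-rich splicing factor and lies on chromosome 12 from 80945495 to 80950507 (GRCm38.p6). Its level was 165, 174, 179 and 168 CPM in DRF and 229, 245, 225 and 233 CPM in NRF. The groups were well apart, and the level fell by 0.44 ± 0.04 (SE, log2; adjusted p = 0.00224). Among 37 splicing factors in all, 2 were called higher and 1 lower (8.11% of them, against 3.23% of all genes). Sfpq, a paraspeckle protein, rose by 0.24 ± 0.06 and Tra2b by 0.14 ± 0.03, whereas the median over the 37 was 0.005. Srsf5 was the single member that passed in every fit with a mouse left out, and Tra2b passed in 0 of them.

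A pair of amino acid transporter genes were among the other firmest calls. Slc38a2 encodes SNAT2, which takes up small neutral amino acids such as glutamine, and lies on chromosome 15 from 96687392 to 96699728. It was at 159, 140, 152 and 164 CPM in DRF and at 111, 101, 111 and 108 CPM in NRF, a rise of 0.51 ± 0.05 (adjusted p = 0.00472). Slc7a11 encodes xCT, which imports cystine in exchange for glutamate, and lies on chromosome 3 from 50364936 to 50499087. It was at 73.2, 65.1, 71.7 and 67.7 CPM in DRF and at 53.8, 49.1, 52.3 and 53.0 CPM in NRF, a rise of 0.41 ± 0.05 (adjusted p = 0.00923). Neither gene had overlapping groups. Slc7a11 is also a target of ATF4, the factor of the amino acid response. It was the 1 gene called of 22 listed ATF4 genes (4.55%, near the 3.23% of all genes). Slc38a2 was not on that list, and whether its rise follows ATF4 was not tested. Of the remaining ATF4 genes, Asns, the asparagine synthetase, differed by -0.06 (adjusted p = 0.317) and Trib3 by -0.18 (adjusted p = 0.263), and the median of the list was 0.003.

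Etv5, an ETS transcription factor that follows growth factor signalling, was at 51.5, 53.0, 51.9 and 54.8 CPM in DRF and at 40.002, 33.3, 37.3 and 32.4 CPM in NRF. It lies on chromosome 16 from 22381313 to 22439570 and rose by 0.56 ± 0.06 (adjusted p = 0.00923). Safb, a nuclear scaffold protein, passed in 7 of the 8 fits with a mouse left out, with a rise of 0.33 ± 0.04. Id2, an inhibitor of helix-loop-helix factors, fell by 0.47 ± 0.06, and Ubtf, the factor of ribosomal RNA transcription, rose by 0.35 ± 0.04, and both passed in 6 fits. Safb, Id2 and Ubtf are outside the rule for named genes and were chosen for how many fits they passed.

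**Figure D3:**
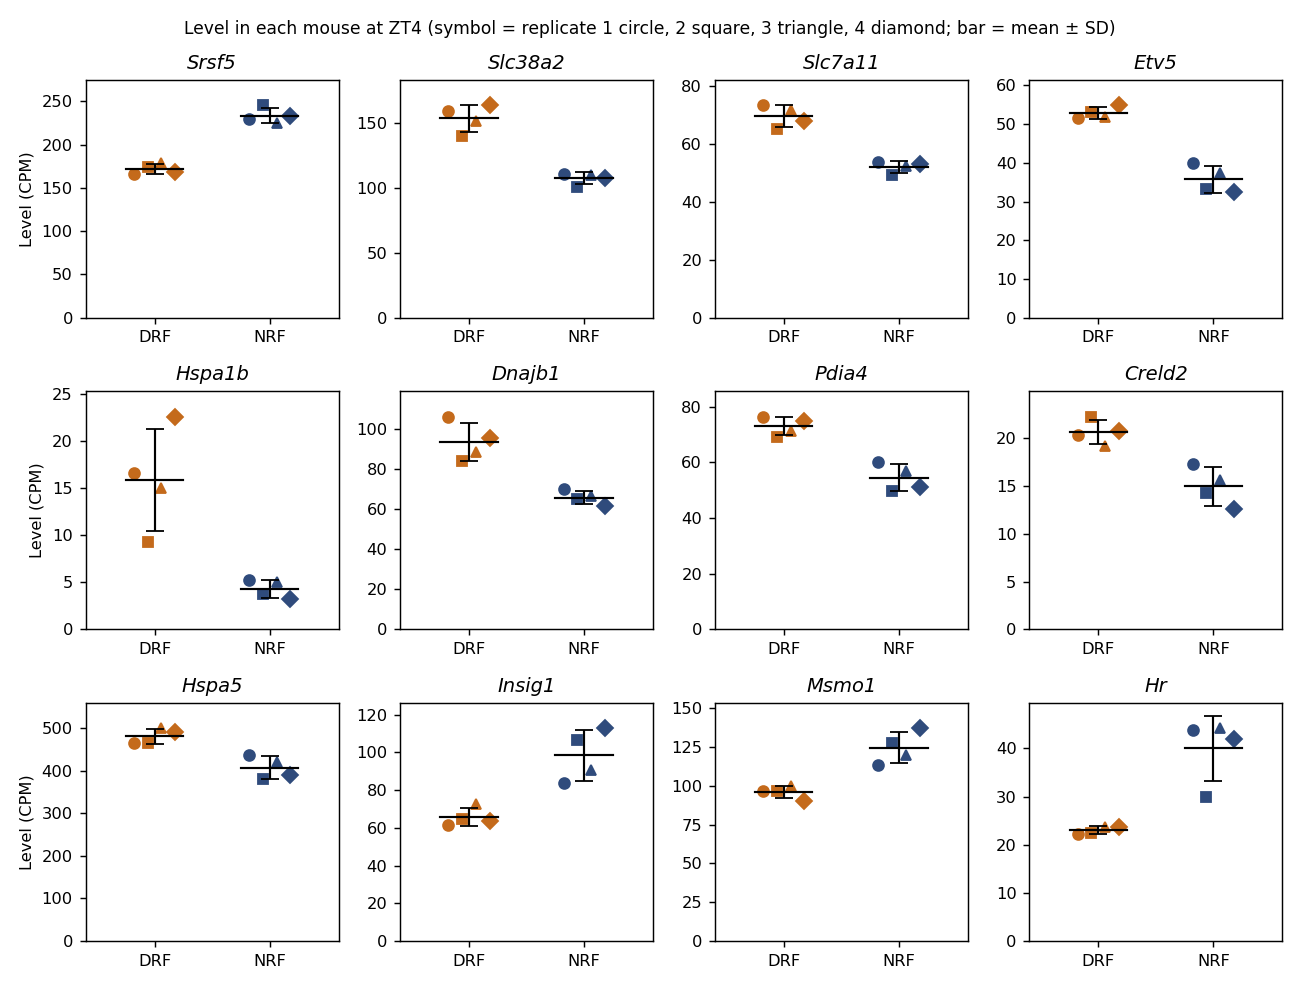
Level (CPM, axis from 0) of 12 named genes in each ZT4 mouse (orange, DRF; blue, NRF; the symbol marks the replicate, bars give mean and SD, 4 mice per group). In each panel the groups do not overlap, as for Srsf5 at 165 to 179 CPM in DRF and 225 to 245 CPM in NRF.

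Several ER folding genes rose in DRF. Of 21 members, 8 were called higher against 2.34% of all genes, none was called lower, and 18 lay above 0 against 48.6% of all genes, with a median of 0.10. Those called span the folding cycle. Hspa5 is the main ER chaperone (BiP), Dnajc3 its co-chaperone, Pdia4 a disulphide isomerase, Creld2 and Manf secreted or ER-resident stress proteins, Sdf2l1 an HSPA5 partner, Herpud1 a part of ER-associated degradation and Xbp1 the factor that drives the group. With length and GC trends removed, 20 of 21 members lay above 0 and 8 passed.

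Some promoters of this group carry the ER stress response element, shown here because several members share it. The element was searched, on both strands, as CCAAT, any 9 bases and CCACG in the 250 bases before each RefSeq gene start (GRCm38.p6). It was found in 21 of 12709 promoters of genes tested (0.165%). Of the 17 ER members with a promoter in the table, 8 held it, namely Hspa5, Hsp90b1, Pdia6, Calr, Canx, Dnajc3, Creld2 and Syvn1, of which Hspa5, Dnajc3 and Creld2 were called at ZT4. These are 3 of the 7 called members with a promoter in the table. The windows of Dnajc3 (chr14:118937787-118937885, plus strand) and Creld2 (chr15:88819480-88819578, plus strand) and the element alone of Hspa5 (chr2:34772025-34772043, plus strand) and of Syvn1 (chr19:6046532-6046550, plus strand), a member that was not called, are printed 5′ to 3′ with the element in capitals. In Creld2 it is on the opposite strand and so reads as its reverse complement.
Dnajc3: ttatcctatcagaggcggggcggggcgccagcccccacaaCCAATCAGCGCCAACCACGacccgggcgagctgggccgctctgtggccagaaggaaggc
Creld2: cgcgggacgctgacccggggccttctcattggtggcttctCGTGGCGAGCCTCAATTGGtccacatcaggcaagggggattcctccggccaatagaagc
Hspa5: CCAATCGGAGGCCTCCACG
Syvn1: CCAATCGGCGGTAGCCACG

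The element ends 86 bases before the start of Dnajc3, 107 bases before that of Creld2 and 46 bases before that of Hspa5. Among all 412 genes called at ZT4 that had a promoter in the table, 4 held it, the fourth being Derl3, another ER-associated degradation gene, which rose by 0.36 ± 0.08. A match is a stretch of letters and not a measured binding site. A heat shock element of TTC, GAA and TTC with 2 bases between neighbours, searched in the same way, was in 2 of 21 heat shock promoters (Hspe1 and Hspd1, neither called) and in 0.449% of promoters of genes tested. The sterol element TCACCCCAC was in 1 of 22 promoters of the sterol group (Hmgcs1, not called) and in 0.622%.

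In single mice, Pdia4 was at 76.4, 69.2, 71.4 and 74.7 CPM in DRF and at 60.3, 49.7, 56.9 and 51.1 CPM in NRF, a rise of 0.42 ± 0.06 (adjusted p = 0.0142). Hspa5, the most abundant member called, was at 466, 466, 500 and 492 CPM in DRF and at 437, 380, 422 and 390 CPM in NRF, a rise of 0.24 ± 0.05. Creld2 was at 20.3, 22.2, 19.2 and 20.7 CPM in DRF and at 17.3, 14.2, 15.6 and 12.6 CPM in NRF, a rise of 0.44 ± 0.09. In each of the 3 genes NRF replicate 1 was the night-fed mouse nearest to the day-fed ones, and the groups did not overlap. The other rises were 0.42 in Sdf2l1, 0.28 in Manf, 0.26 in Dnajc3, 0.23 in Xbp1 and 0.21 in Herpud1. Other chaperones of the compartment did not pass. Hsp90b1 differed by 0.02 (adjusted p = 0.893), Calr by 0.01 (adjusted p = 0.911) and Pdia3 by -0.01 (adjusted p = 0.906), and Ddit3, the CHOP factor of prolonged ER stress, by 0.01 (adjusted p = 0.951). The count of 8 was between 0 and 9 with 1 mouse left out, and it was 0 without DRF replicate 1, DRF replicate 4 or NRF replicate 4.

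Some cytosolic heat shock genes also rose. Of 26 members, 5 were called higher, against 2.34% of all genes, and none lower, and 24 lay above 0, against 48.6% of all genes, with a median of 0.11. Hspa1b, an inducible HSP70 gene on chromosome 17 from 34956429 to 34959238, was at 16.6, 9.3, 15.03 and 22.6 CPM in DRF and at 5.28, 3.7, 4.98 and 3.2 CPM in NRF. Its rise of 1.63 ± 0.21 (adjusted p = 0.0142) was the largest of all called genes outside the red-cell genes. Its neighbour and near-identical copy Hspa1a rose by 0.76 ± 0.12, and since reads cannot be split with certainty between these copies their sum is given too. It was 39.3 ± 8.46 CPM in DRF and 17.8 ± 3.11 CPM in NRF (SD, n = 4), a ratio of 2.21.

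Dnajb1, the HSP40 partner of HSP70, was at 106, 84.2, 88.7 and 95.3 CPM in DRF and at 69.9, 64.9, 66.6 and 61.8 CPM in NRF, a rise of 0.50 ± 0.07. Ahsa2, an HSP90 co-chaperone, rose by 0.32 ± 0.05, and Dnajb4, another HSP40, by 0.16 ± 0.03. None of these genes had overlapping groups. The constitutive members were closer to 0, with 0.02 in Hspa8 (adjusted p = 0.835), 0.00 in Hsp90aa1 (adjusted p = 0.993) and 0.11 in Hsp90ab1 (adjusted p = 0.179). The cold-induced genes, which fall as temperature rises, gave no call. Rbm3 was at 84.0, 76.5, 80.1 and 72.7 CPM in DRF and at 45.7, 77.6, 44.5 and 75.7 CPM in NRF (adjusted p = 0.171), so that the night-fed mice were split into replicates 1 and 3 below and 2 and 4 within the day-fed range. Cirbp differed by -0.10 ± 0.11 (adjusted p = 0.658). The count of 5 heat shock genes was between 0 and 7 with 1 mouse left out, and it was 0 without NRF replicate 4 and 1 without DRF replicate 1 or 4.

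Cholesterol synthesis genes fell in part. Of 32 members of the sterol and fatty acid list, 11 were called lower against 0.897% of all genes, none higher, and 25 lay below 0 against 51.4% of all genes, with a median of -0.16. With length and GC trends removed, 30 lay below 0, the median was -0.17 and 12 passed. Insig1, the ER protein that retains the SREBP complex, was at 61.7, 64.5, 72.8 and 63.9 CPM in DRF and at 83.9, 107, 90.7 and 113 CPM in NRF. It lies on chromosome 5 from 28071412 to 28078662 and fell by 0.57 ± 0.09 (adjusted p = 0.0142). Every NRF mouse was above every DRF mouse, with NRF replicates 2 and 4 the highest.

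The enzymes called cover the pathway from the mevalonate steps to cholesterol. In the mevalonate and isoprenoid steps, Mvd, the decarboxylase, fell by 0.46 ± 0.08 and Idi1, the isopentenyl isomerase, by 0.45 ± 0.08. At the entry to sterols, Fdft1, squalene synthase, fell by 0.26 ± 0.04 and Sqle, the epoxidase, by 0.27 ± 0.05. In the later steps, Msmo1 was at 96.8, 96.4, 99.6 and 90.3 CPM in DRF and at 114, 128, 120 and 137 CPM in NRF and fell by 0.37 ± 0.06. Hsd17b7 fell by 0.49 ± 0.10, Nsdhl by 0.26 ± 0.05 and Dhcr7, the last reductase, by 0.30 ± 0.05. Stard4, a sterol carrier, fell by 0.29 ± 0.07.

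Hmgcs1, which makes HMG-CoA, missed the threshold at -0.23 (adjusted p = 0.101). The fatty acid enzymes Fasn, Acaca and Acly of the same list did not pass. They were at 0.06 (adjusted p = 0.53), 0.04 (adjusted p = 0.717) and 0.09 (adjusted p = 0.448). Over the whole list 7 members lay above 0, and 2 with the length and GC trends removed. The sign of such small values therefore depends on that setting. The SREBP genes themselves were at 0.03 (Srebf2, adjusted p = 0.745) and 0.04 (Srebf1, adjusted p = 0.772). The count of 11 was between 0 and 14 with 1 mouse left out, and it was 0 without DRF replicate 1, DRF replicate 4 or NRF replicate 4. Oligodendrocytes are a main site of cholesterol synthesis in brain, and 11 of their 12 markers were below 0, with a median of -0.14. Their summed level was 5990 to 7204 CPM in DRF and 6222 to 8018 CPM in NRF, none of the markers was at 0, and their part in the sterol result was not tested. Opalin, a myelin gene, was the single marker called (8.33%, against 3.23% of all genes), with a fall of 0.64 ± 0.10.

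**Figure D4:**
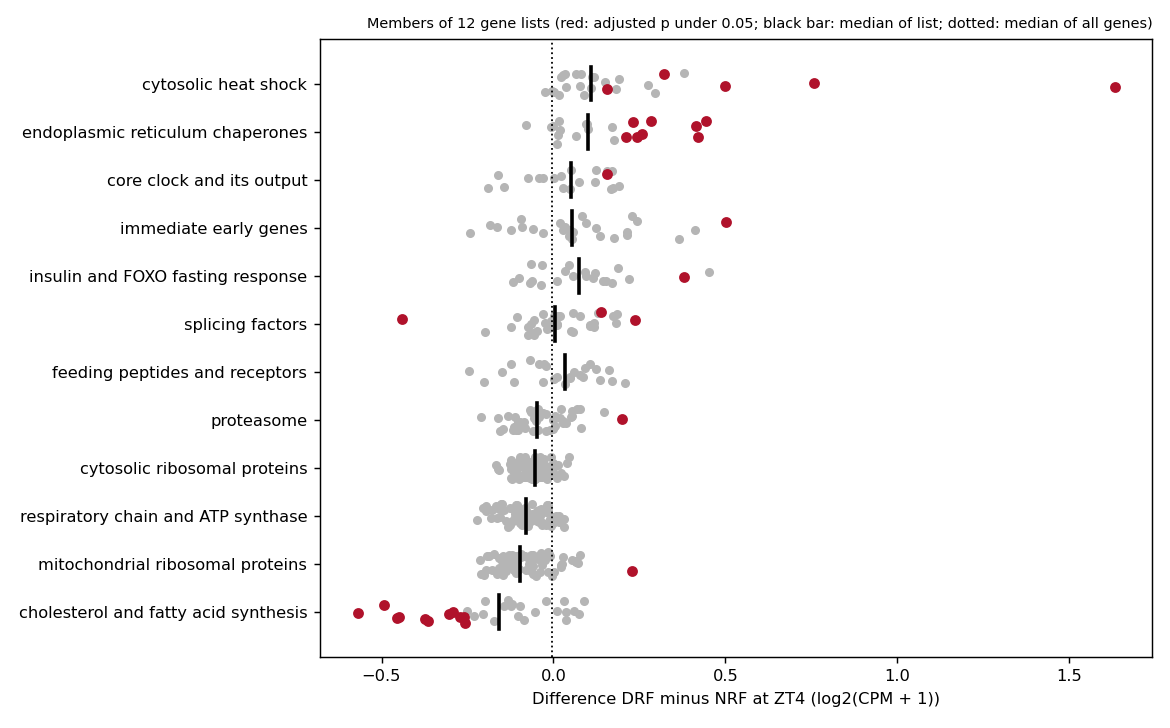
Difference DRF minus NRF at ZT4 in log2(CPM + 1) (horizontal axis) for each member (points) of 12 gene lists (vertical axis), with members of adjusted p under 0.05 in red, the list median as a black bar and the median of all genes as a dotted line. The medians run from 0.11 in cytosolic heat shock genes to -0.16 in cholesterol and fatty acid synthesis.

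Of 20 core clock and output genes, 1 was called (5% of them, near the 3.23% of all genes), and 14 lay above 0, with a median of 0.05. Tef, a PAR-domain output factor, was at 319, 312, 322 and 312 CPM in DRF and at 281, 280, 298 and 276 CPM in NRF, a rise of 0.16 ± 0.03 (adjusted p = 0.042) that passed in 0 of the 8 fits with a mouse left out and was lost with the length and GC trends removed. The light-responsive repressor Per2 had values of 35.4, 33.1, 34.4 and 34.96 CPM in DRF and 30.1, 29.4, 31.2 and 31.4 CPM in NRF. Its difference of 0.17 ± 0.04 and that of Per3, 0.19 ± 0.05, did not pass, both at an adjusted p of 0.0595, although in both genes the groups did not overlap. Bhlhe41, a repressor of the clock, differed by 0.15 ± 0.05 (adjusted p = 0.0883).

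The remaining clock genes had adjusted p-values of 0.152 or more. The activators were at 0.02 ± 0.05 in Arntl (adjusted p = 0.836), 0.17 ± 0.07 in Clock and -0.16 ± 0.12 in Npas2. The repressors were at 0.12 ± 0.07 in Per1, 0.07 ± 0.09 in Cry1 and 0.03 ± 0.05 in Cry2, and Ciart was at -0.14 ± 0.09. For the nuclear receptors, Nr1d1 was at -0.04 ± 0.04, Nr1d2 at 0.12 ± 0.05, Rora at -0.19 ± 0.24 and Rorb at 0.05 ± 0.06. Dbp, the output gene with the widest daily swing in many tissues, was at 46.6, 50.8, 49.9 and 47.6 CPM in DRF and at 46.4, 58.0, 52.5 and 49.0 CPM in NRF, a difference of -0.07 ± 0.06. Nfil3, Bhlhe40 and Hlf were at 0.05 ± 0.08, -0.03 ± 0.06 and 0.00 ± 0.12. Of 18 genes of the suprachiasmatic nucleus 1 was called (5.56%, against 3.23% of all genes). It was Zfhx3, a transcription factor whose mutation shortens the daily period, with a rise of 0.22 ± 0.04. Its call passed in 3 of the 8 fits with a mouse left out and was lost with the length and GC trends removed.

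Lists on energy state had 0 to 2 called members each, and shares of up to 7.69% against 3.23% of all genes. Of 25 feeding peptides and receptors none passed, and the nearest were Cckbr, a cholecystokinin receptor, at 0.21 ± 0.07 (adjusted p = 0.102), Cartpt at -0.20 ± 0.09 and Npy1r at 0.13 ± 0.07. In the insulin and FOXO list of 22 genes, Irs2, the insulin receptor substrate, was at 51.7, 40.7, 44.8 and 47.2 CPM in DRF and at 38.9, 30.3, 36.7 and 34.99 CPM in NRF and rose by 0.38 ± 0.08 (adjusted p = 0.0391). Its relative Irs1 was at 0.19 (adjusted p = 0.0799). Among 24 genes of glucose uptake and glycolysis, Pdk1, a kinase that restrains pyruvate dehydrogenase, fell by 0.21 ± 0.05. Among 31 autophagy and lysosome genes Ulk1, the kinase that starts autophagy, rose by 0.21 ± 0.05 and Hexa, a lysosomal enzyme, fell by 0.23 ± 0.04. In the ketone and fatty acid oxidation list of 24 genes none passed, with Bdh1 nearest at -0.14 ± 0.05 (adjusted p = 0.117). Among 27 amino acid degradation genes Etnppl, a phospho-lyase of astrocytes, rose by 0.41 ± 0.09, and 1 of 13 NAD and sirtuin genes, Nmnat3, fell by 0.44 ± 0.10.

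Signal-responsive genes were mixed. Of 28 immediate early genes 1 passed (3.57%, near the 3.23% of all genes), and 20 lay above 0, against 48.6% of all genes. It was Fosl2, at 19.1, 16.3, 18.3 and 16.6 CPM in DRF and at 13.0, 11.6, 11.3 and 12.6 CPM in NRF, a rise of 0.50 ± 0.07. Hr, a corepressor whose transcription thyroid hormone raises, was at 22.1, 22.5, 23.6 and 23.7 CPM in DRF and at 43.8, 29.95, 44.2 and 42.0 CPM in NRF. It fell by 0.76 ± 0.10 (adjusted p = 0.0142), with NRF replicate 2 between the groups. Hr was the 1 called of 9 thyroid hormone genes (11.1%, against 3.23% of all genes). Of 21 glucocorticoid receptors and targets 1 was called (4.76%, against 3.23% of all genes), namely Mt2, a metallothionein. Mt2 fell by 0.60 ± 0.12, although DRF replicate 2 at 91.9 CPM overlapped NRF replicate 4 at 91.3 CPM. Slc30a1, the zinc exporter that responds to the same metal sensor, fell by 0.36 ± 0.08. Mt2 and Slc30a1 were the 2 genes called of 11 metallothionein and zinc genes (18.2%, against 3.23% of all genes). None of 14 Kruppel-like factors passed, Klf11 being nearest at -0.27 ± 0.08 (adjusted p = 0.0865). None of 25 neuroendocrine peptide genes passed, Esr1 being nearest at 0.26 ± 0.08 (adjusted p = 0.0832), and none of 21 Hippo genes, Wwc1 being nearest at 0.20 ± 0.06 (adjusted p = 0.0883).

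Several of the largest single changes belong to none of these groups. Among the rises were Zfp966 (1.05 ± 0.19), Zbtb40 (0.90 ± 0.15) and Banp (0.62 ± 0.11), all DNA-binding proteins. Each passed in 4 of the 8 fits with a mouse left out. With all 56 mice in the fit Zfp966 did not pass (limma adjusted p = 0.196), while Zbtb40 and Banp did. Fabp7, a fatty acid binding protein of radial glia and astrocytes, was at 19.8, 32.9, 23.5 and 32.1 CPM in DRF and at 49.3, 45.8, 46.3 and 52.0 CPM in NRF, a fall of 0.84 ± 0.13. Hif3a, a hypoxia-family factor, fell by 0.76 ± 0.17 at 3.06 to 3.6 CPM in DRF and 4.66 to 9.93 CPM in NRF. H1f0, the replacement linker histone, fell by 0.31 ± 0.05, the 1 called of 4 linker histones tested (25%, against 3.23% of all genes). The other named falls were Tipin (0.60), Crabp1 (0.59), Cnn2 (0.52), Tmem114 (0.51) and Efcab7 (0.50).

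The fall in Hdc was uneven among mice. Hdc, the histamine synthesis enzyme of the tuberomammillary neurons of the posterior hypothalamus, was at 18.5, 6.09, 8.93 and 6.25 CPM in DRF and at 19.8, 47.5, 19.5 and 25.6 CPM in NRF, a fall of 1.45 ± 0.33 (adjusted p = 0.0434). Wif1, a WNT inhibitor, had the same order at the top, with NRF replicate 2 highest at 8.09 CPM, and fell by 1.14 ± 0.26. Each passed in 1 of the 8 fits with a mouse left out. H2ac19, a histone gene without a long poly(A) tail and near-identical to other copies, was at 0 to 1.05 CPM in DRF and 1.2504 to 2.56 CPM in NRF, and its call is uncertain.

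Genes for ribosomes and respiration lay slightly below 0. Of 79 respiratory chain and ATP synthase genes, 74 lay below 0, against 51.4% of all genes, with a median of -0.08, and none was called. Uqcrb, a complex III subunit, was nearest at -0.20 ± 0.05 (adjusted p = 0.0595). Of 84 cytosolic ribosomal proteins, 78 lay below 0 with a median of -0.05, and of 78 mitochondrial ribosomal proteins 66, with a median of -0.10. These are short genes, with median lengths of 1675, 1736.5 and 2213.5 bases. With the length and GC trends removed the medians were -0.03, -0.01 and -0.05 and the numbers below 0 were 60, 54 and 60, against 52% of all genes in that setting. Mrps6 was the 1 mitochondrial ribosomal gene called (1.28%, against 3.23% of all genes) and rose by 0.23 ± 0.06. Of 49 proteasome genes Psmd11 was called (2.04% of the list), with a rise of 0.20 ± 0.03, and 34 lay below 0, or 21 with the trends removed. Of 23 aminoacyl-tRNA synthetases none passed, Lars being nearest at -0.23 ± 0.06 (adjusted p = 0.0536).

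A few markers of other cells passed the test. All 10 microglial markers lay below 0, against 51.4% of all genes, with a median of -0.13. C1qa, a complement component, was the 1 called (10%, against 3.23% of all genes), with a fall of 0.26 ± 0.06. Their summed level was 247 to 274 CPM in DRF and 265 to 281 CPM in NRF. Of 10 mural and meningeal markers 8 lay below 0 and Pdgfrb, the pericyte receptor, fell by 0.25 ± 0.05, with sums of 139 to 156 CPM in DRF and 155 to 177 CPM in NRF. Ly6c1 of endothelium fell by 0.29 ± 0.07 and Olig1 of the oligodendrocyte lineage by 0.18 ± 0.03. The shares called were 10% of mural and meningeal, 9.09% of endothelial and 12.5% of oligodendrocyte precursor markers. No marker was called among 15 anterior hypothalamic, 10 neuronal, 10 astrocyte, 10 choroid plexus, 8 ependymal and tanycyte, 6 arcuate, 6 thalamic, 6 striatal and 6 cortical genes, or among the few of the pituitary and the lateral hypothalamus. The part of cell make-up in the results above was not tested.

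The same regimens were sampled in other mice at 6 further times, which places the ZT4 differences in the day. In fits of 8 mice each, 851 genes (5.3%) passed at ZT0, 1 (0.00623%) at ZT8, 0 at ZT12 and ZT16, 6 (0.0374%) at ZT20 and 14 (0.0872%) at ZT24. At an unadjusted p under 0.05 there were 2769 genes at ZT8, 1918 at ZT12 and 2214 at ZT16, and no other tool was run. At ZT8, the second time with food in the DRF cage only, 76.8% of the genes called higher at ZT4 lay above 0 and 79.2% of those called lower lay below 0. At ZT12 these shares were 94.7% and 82.6%, and at ZT24 they were 13.9% and 26.4%, against 48.8% to 51.2% of all genes at these times. At ZT0, ZT16 and ZT20 the share above 0 of the genes called higher was 42.9%, 61.1% and 33.6%. Spearman's correlation between the difference and length, across genes, was 0.15 at ZT0, 0.32 at ZT4, 0.41 at ZT8 and 0.11 at ZT12. It was -0.17 at ZT16, 0.11 at ZT20 and -0.16 at ZT24. The part of the length trend in these shares was not tested.

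**Figure D5:**
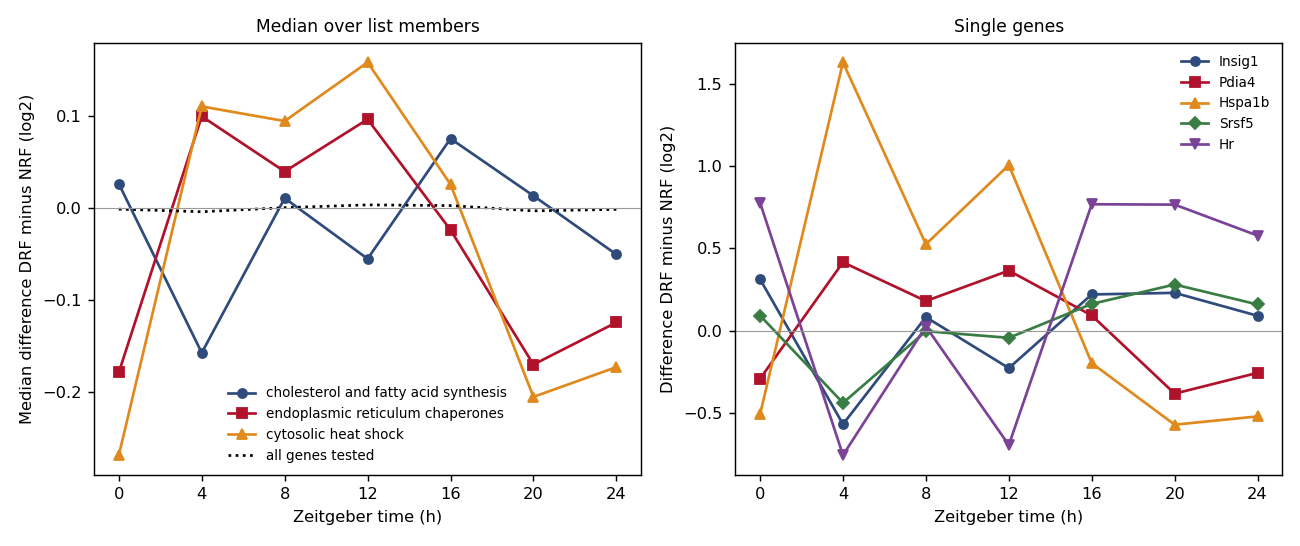
Difference DRF minus NRF (log2) against zeitgeber time (h), as the median over list members (left) and for 5 single genes (right), from 8 mice at each time. Heat shock and ER chaperone medians are -0.27 and -0.18 at ZT0 and 0.11 and 0.10 at ZT4.

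The chaperone groups were on opposite sides at ZT0 and ZT4. At ZT0, when the food of DRF mice is returned and that of NRF mice taken away, 25 of 26 heat shock genes lay below 0 with a median of -0.27, and 14 were called lower in DRF, against 2.55% of all genes tested. Of 21 ER genes 17 lay below 0 with a median of -0.18, and 10 were called lower. Of 32 sterol and fatty acid genes 20 lay above 0 with a median of 0.03, and 4 were called higher (2.75% of all genes tested) and 1 lower. The difference between the ZT4 and ZT0 contrasts was tested as an interaction over all 56 mice, a comparison chosen after the data were seen. It passed for 818 genes (5.09% of those tested), for 16 of 26 heat shock, 11 of 21 ER and 9 of 32 sterol genes. Hspa1b went from -0.51 at ZT0 to 1.63 at ZT4 (adjusted p = 4.62e-05 for the difference), Pdia4 from -0.29 to 0.42 (adjusted p = 3.29e-05) and Insig1 from 0.31 to -0.57 (adjusted p = 3.53e-05). Hr went from 0.78 to -0.76 (adjusted p = 6.71e-06) and Hif3a from 1.80 to -0.76 (adjusted p = 1.08e-07). Fabp7 lay below 0 at both times, at -1.02 and -0.84, and its interaction did not pass (adjusted p = 0.75). ZT24 is the same hour of the light cycle as ZT0, sampled in other mice, and 14 genes passed there against 851 at ZT0. At ZT24 the heat shock, ER and sterol medians were -0.17, -0.12 and -0.05. Hspa1b was at -0.52, Pdia4 at -0.26, Insig1 at 0.09, Hr at 0.58 and Hif3a at 1.39.

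At ZT16 the feeding state is mirrored, with NRF mice 4 h into their food and DRF mice 4 h without. Libraries of DRF replicates 3 and 4 at ZT16 stand apart, with a rho of 0.66 and 0.78 between their deviation and GC content. The ZT4 and ZT16 contrasts differed in 1250 genes (7.79%) over all 56 mice, in 73 without those libraries and in 40 with only the 16 mice of both times. Without one of them at a time there were 197 (replicate 3) and 312 (replicate 4), and without DRF replicate 1 or 2 of ZT16 there were 3375 and 3269. A total of 13 named genes passed both with and without the pair. Insig1 was at 0.22 at ZT16 and -0.57 at ZT4, Srsf5 at 0.16 and -0.44, Slc38a2 at -0.41 and 0.51, and Etv5 at -0.09 and 0.56. The medians of the ER, heat shock and sterol lists at ZT16 were -0.02, 0.03 and 0.08. Against ZT8 the contrast differed in 0 genes by limma (1233 at an unadjusted p under 0.05, and 1 with only the 16 mice). At ZT8 the sterol list had a median of 0.01, with 16 of 32 genes below 0.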

How the data were processed

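RNA of the anterior hypothalamus was sequenced by the authors, filtered with SOAPnuke, mapped with HISAT2 and Bowtie2 to GRCm38.p6 (mm10), quantified with RSEM and normalized by TMM in edgeR. The deposited value, named TPM by the authors, behaves as a score: the steps between low values are those of log2(CPM + 1) divided by gene length and rescaled to a near-fixed sum (median relative deviation 1.92e-08). The steps were undone here to give log2(CPM + 1), and 15332 of 17564 genes resolved into whole reads within 0.02 of a read. Another 423 genes took their length from the annotation, among them Hba-a1, Hba-a2, Hbb-bs, Nr1d1, Fdft1 and Sfpq. Their level, log2 difference and SE follow from that length and are approximate, as is the ratio of the red-cell sums.

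The 16056 genes tested reached a deposited value of 1 in 80% or more of all 56 mice and had a recovered scale. DRF minus NRF at ZT4 was fitted with limma 3.58.1 (trend, two-sided) in R 4.3.3 over the 8 mice, and p-values were adjusted by the Benjamini-Hochberg method over all genes tested. A fold change on the log2(CPM + 1) scale understates that of genes with low levels. Differences between times were limma interaction contrasts over all 56 mice. The paper's methods state no test for 1 time point. The alternatives were other scalings, filters and pseudocounts, the deposited value itself, trends in length and GC content removed, all mice in the fit, a replicate block and each mouse left out.

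Named genes were the 15 largest rises and 15 largest falls past the threshold with a mean log2(CPM + 1) of at least 1 in either group, up to 6 called members of each gene list by p (or the 3 nearest where none was called), and all core clock genes; a few genes under this rule are not reported here. The comparison and the lists were chosen with earlier results of these data known. A kinase gene that matched the name pattern of ribosomal proteins was taken out of that list after the values were seen. Members are described by counts and medians, since list members are not replicates. Promoters came from RefSeq (GRCm38.p6) and matched 12709 of the genes tested.

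The labels do not say whether a shared replicate number pairs the mice. The correlations of same-numbered deviations were 0.037, 0.25, 0.11 and 0.067, and those of unlike numbers ran from -0.23 to 0.25. An effect shared by mice of the same number was not tested. The method was tested on simulated data for the ZT4 comparison over 16056 genes, with 50 genes changed at each fold. It called 29 genes at a fold of 1.25 and 29 at 0.8, 46 at 1.5 and 42 at 0.667, and 5 of 15856 unchanged genes. Whether these counts hold where mice differ in length trend or red-cell genes, as the ZT4 mice did, was not tested.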

Additional observations from a re-analysis of the deposited data

Results flagged for a closer look

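In 8 named genes 1 mouse stood far from the other 3 of its group by Dixon's criterion. The criterion was applied to 208 groups of 4 mice, and chance gives about 1 in 20. Hr was at 29.95 CPM in NRF replicate 2 and at 42.0 to 44.2 CPM in the other NRF mice. Clock was at 72.2 CPM, Prlr at 48.1 CPM and Rpl5 at 244 CPM in the same mouse, against 87.9 to 90.4, 54.0 to 54.8 and 217 to 221 CPM in the others. Tmem114 was at 2.27 CPM in DRF replicate 1 (others 1.30 to 1.34), Dars at 61.0 CPM in DRF replicate 2 (others 55.6 to 56.0), Pdk1 at 54.1 CPM in NRF replicate 3 (others 51.3 to 51.7) and Mrps6 at 19.4 CPM in NRF replicate 4 (others 21.6 to 22.1).

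The difference between DRF and NRF was not the same at ZT4 and ZT0 for 818 genes (limma interaction over all 56 mice, adjusted p under 0.05), a comparison chosen after the data were seen. The values that follow are the ZT4 difference minus the ZT0 difference on the log2 scale. Among heat shock genes it was 2.14 in Hspa1b, 1.04 in Hspa1a, 0.71 in Dnajb1 and 0.75 in Ahsa2. Among ER genes it was 0.71 in Pdia4, 0.80 in Creld2, 0.46 in Hspa5, 0.44 in Xbp1, 0.39 in Dnajc3 and 0.27 in Herpud1. Sterol genes went the other way, at -0.88 in Insig1, -0.70 in Hsd17b7, -0.64 in Mvd and -0.38 in Dhcr7. Hif3a was at -2.56, Hr at -1.54, Mt2 at -1.19 and Slc30a1 at -0.54, all lower in DRF at ZT4 and higher at ZT0. Cirbp was at -0.88, from 0.78 at ZT0, and the clock genes Ciart and Dbp were at -0.53 and -0.44. Other genes with a positive value were Zbtb40 at 1.41, Banp at 0.93, Etv5 at 0.87, Mrps6 at 0.59, Slc38a2 at 0.57, Wwc1 at 0.42 and Psmd11 at 0.19. Other genes with a negative value were Tipin at -0.81, Efcab7 at -0.56, Srsf5 at -0.53, Lars at -0.49 and H1f0 at -0.40.

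The ZT4 and ZT16 contrasts differed for 1250 genes, a count that fell to 73 without the DRF libraries of ZT16 that stand apart. In 13 named genes the test passed in both fits, and the value without those libraries follows in parentheses. It was 1.83 in Hspa1b (1.80), 1.18 in Rbm3 (0.96), 0.97 in Zbtb40 (1.06), 0.92 in Slc38a2 (0.66), 0.64 in Etv5 (0.68) and 0.28 in Psmd11 (0.28). It was -1.53 in Hr (-1.61), -0.96 in Mt2 (-0.83), -0.79 in Insig1 (-0.83), -0.60 in Srsf5 (-0.58), -0.49 in Hexa (-0.34), -0.48 in Fdft1 (-0.43) and -0.34 in Pdk1 (-0.43).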

How the results depend on the processing

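All 519 differences at ZT4 kept their direction under every setting in which they could be computed. This is no check of the calls, since the genes were chosen for their difference in the same mice. The number past the threshold moved widely. That number was 68 on log2(deposited value + 1), 259 with no filter, 197 with quantile normalization and 1418 with the replicate number as a block, and 4 to 698 with 1 mouse left out. Higher calls were 191 of 259, 128 of 197 and 1022 of 1418, against 375 of 519 as reported. Of 104 genes named by the rule, tissue markers aside, 59 passed as reported, 7 on the deposited value, 33 with no filter, 31 with quantile normalization and 4 to 53 with 1 mouse left out. Of all members of the lists other than cell type markers 43 passed, then 5, 27 and 26 under these settings, 86 under the block and 2 to 50 with 1 mouse left out. The sterol count of 11 was 0 on the deposited value and 0 to 14 with 1 mouse left out. The ER count of 8 was 1 on the deposited value, 5 with no filter, 4 with quantile normalization and 0 to 9 with 1 mouse left out. The heat shock count of 5 was 2 on the deposited value, 3 with all mice in the fit, 8 under the block and 0 to 7 with 1 mouse left out. The cause of these shifts was not tested.

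The block rests on the replicate numbers of the labels, whose meaning the labels do not give. NRF replicate 2 correlated best with DRF replicate 2 (0.25), and it was also the best match of DRF replicate 1 (0.14). The block gave 809 genes for ZT4 against ZT0 and 1156 against ZT16. With only the 16 mice of both times the interaction counts were 1290 (ZT0), 1 (ZT8) and 40 (ZT16). Without 1 DRF mouse of ZT16 the last was 197 to 3375, and 73 without the pair that stands apart.

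Among single named genes, 1298 values under other settings stayed on the same side of the threshold, 434 lost the call, 19 gained one and 17 changed sign, none of them a gene that was called. The sign changes were 0.000984 in Nr1d1 and 0.00305 in Bhlhe40 on the deposited value, and -0.0038 in Cry2 and -0.039 in Hlf with quantile normalization. With length and GC trends removed they were -0.0055 in Rorb, -0.019 in Cry2, -0.024 in Arntl and -0.020 in Hlf, and with median-of-ratios scaling -0.0029 in Hlf. With 1 mouse left out the values ran from -0.386 to 0.0014 in Rora, -0.0695 to 0.023 in Bhlhe40, -0.00023 to 0.0512 in Arntl, -0.086 to 0.11 in Hlf and -0.158 to 0.035 in Cirbp.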
